A study of Mus musculus with 12 samples.

Results

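H3K27ac, the acetylation of lysine 27 on histone H3, was compared between Esrrb-/- mouse embryonic stem cells (ESCs) and control Esrrb f/f ESCs over every super-enhancer subregion with a deposited value, 671 of 671. Super-enhancers (SEs) are dense clusters of enhancers close to genes that set cell identity. The study cut ESC SEs into subregions that lack DNA methylation in ESCs and named them by what happens in epiblast stem cells (EpiSCs), the cells of the primed state. A persistently unmethylated (PU) subregion stays unmethylated in EpiSCs, and a differentially methylated (DM) subregion is methylated there. Of the 671 subregions, 183 were PU and 488 were DM. Both cell populations were grown without any labelled treatment on gelatin in serum with leukaemia inhibitory factor (LIF). The control cells are labelled Esrrb fl/fl by source and wild-type by genotype, where floxed means that part of the gene is flanked by sites for a recombinase, and the other cells are labelled Esrrb -/- and knock-out. Both were described before this study, and whether either is 1 clone is not given in the sources used here.

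ESRRB is an orphan nuclear receptor that binds DNA at sites holding AAGGTCA and belongs to the network of factors that keeps ESCs in the naive state. H3K27ac is laid down by the acetyltransferases p300 and CBP and marks enhancers and promoters in use. At promoters it is usually strongest over CpG-rich sequence around the transcription start site. A change in H3K27ac at a subregion therefore describes a regulatory element and not the RNA of the gene next to it, which was not used here.

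In each genotype, 2 replicate H3K27ac ChIP-seq libraries were made, and the authors deposited 1 RPKM value per subregion and genotype (reads per kilobase, scaled to a total for that genotype). The spread between replicates is therefore unknown, no test between genotypes was made and no p-value is given. The log2 fold change used throughout compares Esrrb-/- with Esrrb f/f ESCs after 1 RPKM was added to either value, so it is positive where Esrrb-/- ESCs had more H3K27ac. Values in brackets after a fold change are 95% exact (Clopper-Pearson) counting intervals of the read ratio, which cover counting error only. The subregions were 59 to 6870 bp long with a median of 915 bp. The reads recovered from the RPKM numbered 4 to 13558 in Esrrb-/- and 32 to 5974 in Esrrb f/f ESCs, with a median of 649 in either. Each value is an average over the cells of a culture, so fewer cells with the mark and less mark per cell cannot be told apart. No RNA or ESRRB protein measurement was used to check the genotype labels. The SE subregions of the pluripotency gene Pou5f1 held H3K27ac of 682 to 799.5 RPKM in control and 769.9 to 1307 RPKM in Esrrb-/- ESCs.

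The sequences that contrast the loci described next are windows of 200 bases on the plus strand of mm9, taken from introns or intergenic sequence of subregions among the 12 highest or 12 lowest fold changes. Each window was placed on a match to the ESRRB core AAGGTCA or its reverse complement TGACCTT, which is in capitals, so that lost and gained elements with the same letters can be read side by side. The first 3 come from subregions with lower and the last 3 from subregions with higher H3K27ac in Esrrb-/- ESCs.
chr6:31847366-31847565, lower: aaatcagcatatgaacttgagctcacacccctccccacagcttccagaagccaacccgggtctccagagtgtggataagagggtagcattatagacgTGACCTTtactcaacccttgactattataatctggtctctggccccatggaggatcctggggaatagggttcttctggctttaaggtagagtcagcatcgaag
chr17:10559217-10559416 near Qk, lower: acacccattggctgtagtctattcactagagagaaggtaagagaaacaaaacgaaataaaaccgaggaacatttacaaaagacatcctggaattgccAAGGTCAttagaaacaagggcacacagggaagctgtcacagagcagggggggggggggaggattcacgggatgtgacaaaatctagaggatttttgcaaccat
chr14:106300078-106300277 near Spry2, lower: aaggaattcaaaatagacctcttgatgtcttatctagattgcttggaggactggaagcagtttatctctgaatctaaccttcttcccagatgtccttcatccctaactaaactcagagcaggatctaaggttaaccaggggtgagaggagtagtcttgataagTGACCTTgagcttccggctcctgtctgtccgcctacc
chr14:71029057-71029256 in Epb4.9, higher: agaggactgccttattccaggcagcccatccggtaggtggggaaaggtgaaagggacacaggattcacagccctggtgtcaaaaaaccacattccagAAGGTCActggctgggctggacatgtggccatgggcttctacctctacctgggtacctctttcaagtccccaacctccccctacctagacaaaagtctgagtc
chr12:87818927-87819126 in Esrrb, higher: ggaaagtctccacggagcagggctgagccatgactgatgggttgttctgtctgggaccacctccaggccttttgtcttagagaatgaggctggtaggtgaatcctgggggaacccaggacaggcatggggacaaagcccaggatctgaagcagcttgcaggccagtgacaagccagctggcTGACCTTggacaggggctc
chr14:76894806-76895005 in Tsc22d1, higher: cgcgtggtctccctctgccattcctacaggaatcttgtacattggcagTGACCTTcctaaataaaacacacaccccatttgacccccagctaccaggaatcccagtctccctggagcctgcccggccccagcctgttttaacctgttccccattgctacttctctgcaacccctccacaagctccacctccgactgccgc
The windows with lower H3K27ac were 45.5% to 49.5% G or C, and those with higher H3K27ac were 54.5% to 58.5%. Not every subregion with the core among the 12 highest and 12 lowest is shown. Of those left out, a lower one near Qk was 50.7% G or C over its whole length, and a higher one in Epb4.9 52.1%. The core was found in 6 of the 12 subregions with the largest losses and in 5 of the 12 with the largest gains, and in 236 of all 671 (35.2%). A match is a run of letters and not a bound site.

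H3K27ac RPKM was more unequal between subregions in Esrrb-/- ESCs than in control ESCs. Whether the ChIP enriched the libraries of both genotypes equally was not tested. In control ESCs the median was 519.5 RPKM, and the 10th and 90th percentiles were 266 and 747 RPKM, a 2.81-fold range. In Esrrb-/- ESCs the median was 568 RPKM and these percentiles were 204 and 1327 RPKM, a 6.51-fold range. The highest control value was 1358 RPKM and the highest Esrrb-/- value 4097 RPKM. More than 1000 RPKM was reached by 6 subregions in control ESCs and by 138 in Esrrb-/- ESCs, of which 64 were PU, whereas less than 200 RPKM was found at 30 and 64 subregions. The SD of log2 RPKM across subregions was 0.61 in control and 1.11 in Esrrb-/- ESCs. For MED1, the Mediator subunit profiled in the same cells, the order was the opposite, with 1.07 in control and 0.88 in Esrrb-/- ESCs. Across the 671 subregions, which share libraries, the levels of the genotypes had a Spearman correlation of 0.69 and a Pearson correlation of 0.62. The fold change followed the Esrrb-/- level (Spearman 0.82, Pearson 0.76) more closely than the control level (0.22 and 0.20). A fold change is built from both levels, so these last correlations are not independent of it.

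**Figure D1:**
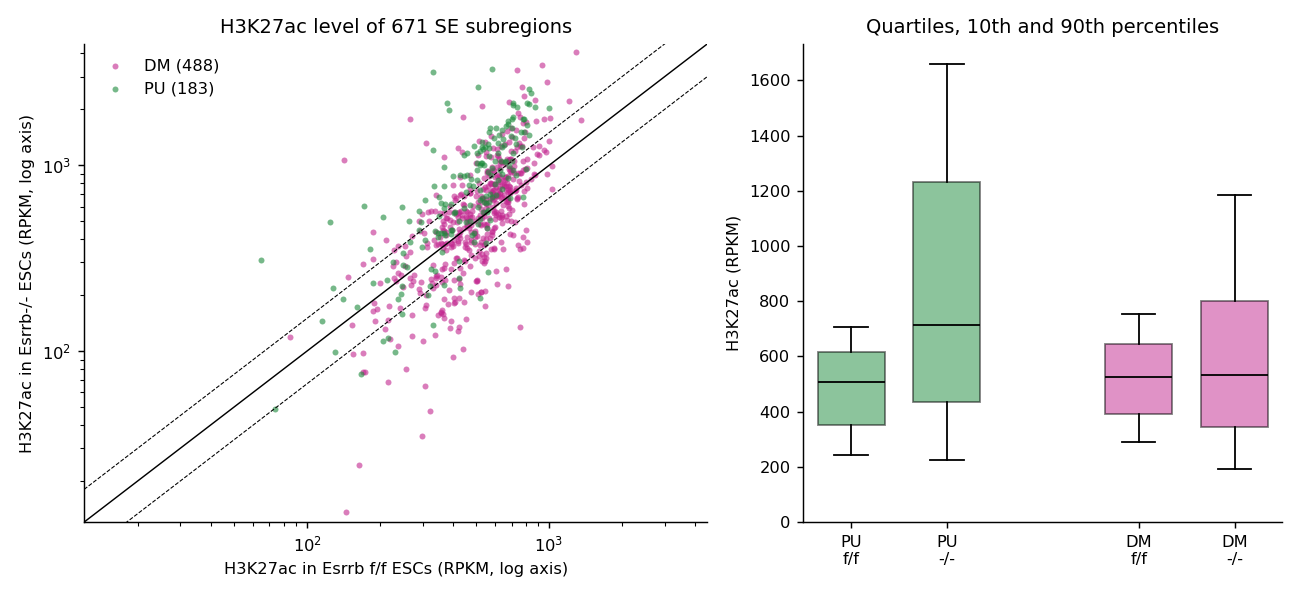
H3K27ac of the 671 subregions. Left, RPKM in control (x) and Esrrb-/- ESCs (y) on log axes, 1 point per subregion, with the line of equal values and dashed lines at 1.5-fold. Right, RPKM by type and genotype as boxes from the lower to the upper quartile with the median and whiskers at the 10th and 90th percentiles. The cloud is taller than it is wide. The PU median is 506 RPKM in control and 714 RPKM in Esrrb-/- ESCs, and the DM median is 526 and 532 RPKM.

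Gains outnumbered losses on the deposited scale. H3K27ac was at least 1.5-fold higher in Esrrb-/- ESCs at 205 of 671 subregions (30.6%) and at least 1.5-fold lower at 101 (15.1%), so gains made up 67.0% of the 306 changes of that size. The paper, which used H3K27ac as a control for MED1, reported no significant effect of ESRRB depletion on this mark at either type. The counts given here are of sizes of change and carry no test, so they do not address that statement. The counting interval lay above 0 at 358 subregions, below 0 at 177 and spanned 0 at 136. The median fold change was 0.24, with quartiles of −0.25 and 0.69 and a range from −3.31 to 3.26. This balance depended on the scaling of the libraries. Centring on the median of all subregions gave 131 gains and 147 losses (47.1% gains), scaling to mapped read pairs gave 118 and 166 (41.5%), and scaling to the reads in all subregions gave 82 and 209 (28.2%). These scalings shifted every subregion by about −0.24, −0.33 and −0.48, so they leave differences between subregions in place, and any fold change given here between 0 and 0.48 turns below 0 under at least one of them.

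Changes of 2-fold or more showed how the types parted. On the deposited scale, 56 of 94 such gains were at the 183 PU and 38 at the 488 DM subregions. Of 54 such losses, 5 were at PU and 49 at DM subregions. At 4-fold or more there were 11 gains, 6 of them PU, and 8 losses, all at DM subregions.

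The largest gains came from few loci. Among subregions of at least 300 bp, the 12 highest fold changes lay in 4 blocks, a block being a set of subregions at most 20 kb from the next one. They held 7 PU and 5 DM subregions, 5 of them within 1 kb of the start of a protein-coding gene, against 105 of all 671 subregions. The first block covers 12698 bp of chromosome 14 from 71022970 to 71035667 inside Epb4.9, which encodes the actin-bundling protein dematin. Its 7 subregions, 4 PU and 3 DM, all had higher H3K27ac, with fold changes of 1.89 to 3.26. Control values there were 267 to 932 RPKM and Esrrb-/- values 1783 to 3454 RPKM, with 1 pooled value per subregion and genotype. The highest of all was an intronic PU subregion from 71028860 to 71029437, the source of the Epb4.9 window printed above, where H3K27ac was 331 RPKM in control and 3187 RPKM in Esrrb-/- ESCs, a fold change of 3.26 (3.08 to 3.46). The DM subregion before it had 267 and 1783 RPKM (2.74, 2.57 to 2.92), and the PU subregion over the Epb4.9 start site had 378 and 2166 RPKM (2.52, 2.40 to 2.64). The next gene is Fgf17, a ligand of fibroblast growth factor receptors, whose start lies 6408 bp from the block. MED1 was higher at all 7 subregions too, by 0.67 to 2.502 on the log2 scale. It was also higher at 111 of the 205 subregions with gains of 1.5-fold or more. At the 365 subregions that changed by less, it was higher at 147.

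The next block surrounds the start of Tsc22d1, a leucine zipper transcription regulator, on chromosome 14 from 76894806 to 76915903. The PU subregion over the start site had 506 RPKM in control and 2640.4 RPKM in Esrrb-/- ESCs, a fold change of 2.38 (2.31 to 2.46). The DM subregions after it had 530.4 and 2074 RPKM (1.97, 1.82 to 2.12), and 514 and 1359.9 RPKM (1.40, 1.33 to 1.48). An intronic DM subregion from 76894806 to 76895194, shown in the last window, had 309.95 and 1313 RPKM (2.08, 1.83 to 2.34), although its MED1 log2 fold change was −1.39. A small PU subregion between them was near the bottom of the range in both genotypes, at 73.6 and 48.5 RPKM, and its interval spanned 0.

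Near Ddit4, whose product restrains mTORC1, 4 intergenic subregions on chromosome 10 from 59420537 to 59437446 had fold changes of 0.75 to 2.23. They started from low control values of 64.8 to 206 RPKM and had 249.6 to 529.96 RPKM in Esrrb-/- ESCs, below the median of all subregions.

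The last of these blocks lies within Esrrb itself on chromosome 12. All 9 subregions are DM and all had higher H3K27ac, 7 of them by at least 1.5-fold. Over all 671 subregions, 64.7% were above 0 and 30.6% were at least 1.5-fold higher. Scaled to the reads in all subregions, 3 of the 9 were at least 1.5-fold higher. The top one, from 87818755 to 87819126, had 735 RPKM in control and 3265 RPKM in Esrrb-/- ESCs, a fold change of 2.15 (1.99 to 2.32). The start-site subregion had 571 and 805 RPKM (0.50, 0.43 to 0.57). The reads do not tell which part of the locus was deleted.

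**Figure D2:**
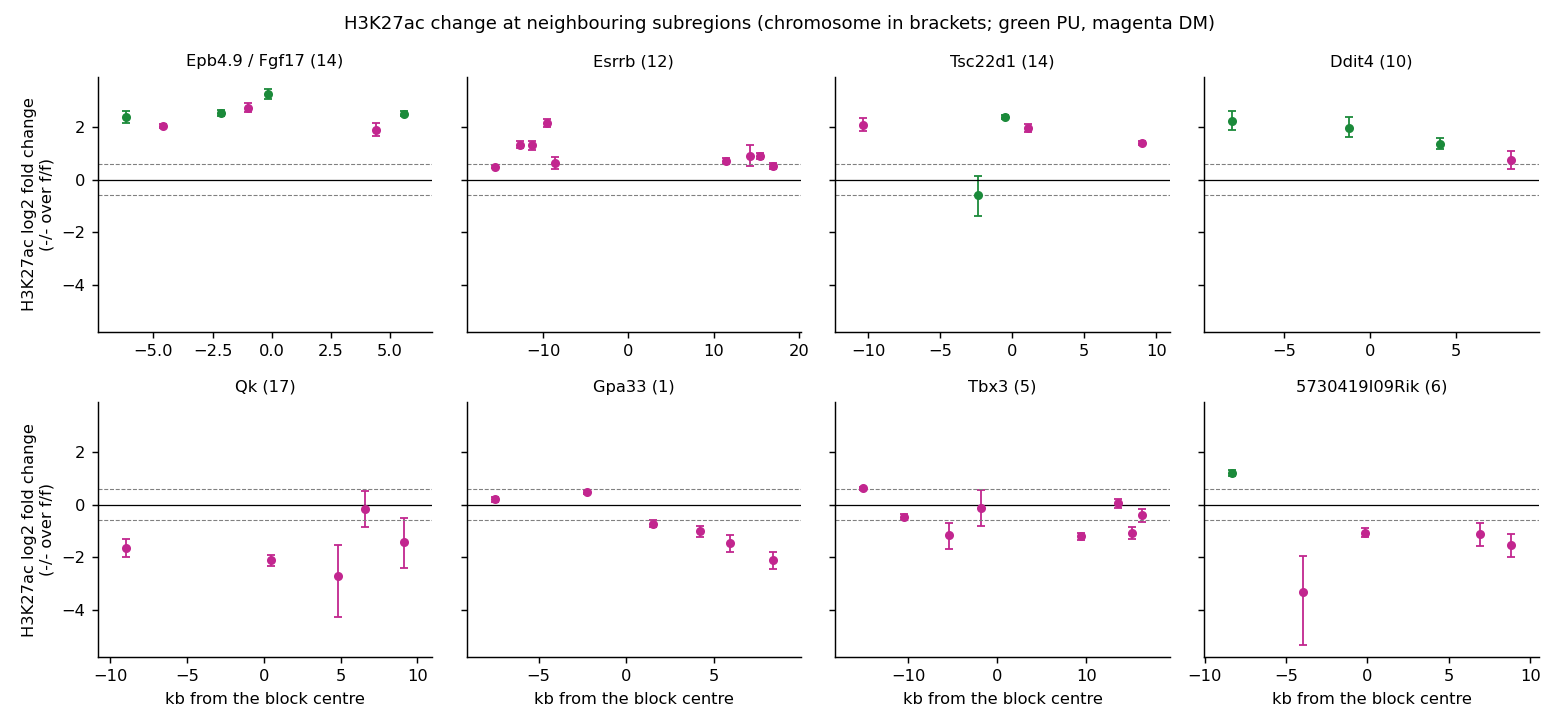
H3K27ac log2 fold change of each subregion in 8 blocks against its distance in kb from the centre of the block, with 95% counting intervals and dashed lines at 1.5-fold. In the upper row, every subregion at Epb4.9, Esrrb and Ddit4 and all but 1 at Tsc22d1 lie above 0. In the lower row, those of Qk lie below 0, and at Gpa33, Tbx3 and 5730419I09Rik subregions with higher and lower H3K27ac stand within a block.

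The largest losses were more scattered and left little H3K27ac behind. The 12 lowest fold changes among subregions of at least 300 bp were all at DM subregions and came from 10 blocks. DM subregions made up 488 of all 671 and 88 of the 101 losses of 1.5-fold or more. Control values there were ordinary, 217 to 756 RPKM, and Esrrb-/- values were 34.8 to 225 RPKM. MED1 was lower at all 12, and also at 218 of the 365 subregions whose H3K27ac changed by less than 1.5-fold. Only 1 of the 12 lay within 1 kb of a start site, against 105 of all 671 subregions. The lowest, on chromosome 6 from 31847019 to 31849813, is 2795 bp long and had 1166 reads in control and 115 in Esrrb-/- ESCs. Its H3K27ac was 299 and 34.8 RPKM, a fold change of −3.07 (−3.39 to −2.83), and the next subregion had 306 and 64.8 RPKM (−2.22, −2.68 to −1.83). The nearest protein-coding start, that of 1700012A03Rik, is 147905 bp from the second of them.

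The other large losses named genes of different kinds. At Cobl, an actin nucleator, an intronic DM subregion on chromosome 11 from 12363904 to 12364331 had 756 and 135 RPKM (−2.48, −2.88 to −2.12). The PU subregion over the Cobl start that follows it at once had 778 and 675 RPKM (−0.21, −0.35 to −0.06). Near Qk, which encodes the RNA-binding protein quaking, the subregion on chromosome 17 from 10557862 to 10559771 had 441 and 103 RPKM (−2.09, −2.31 to −1.90) and that from 10549141 to 10549578 had 542 and 174 RPKM (−1.63, −1.99 to −1.30). At Gpa33, a cell surface antigen, the last intronic subregion had 402 and 93.2 RPKM (−2.10, −2.43 to −1.80). In an intron of Tet2, whose product oxidises 5-methylcytosine, it was 452 and 149 RPKM (−1.59, −1.78 to −1.43). The rest were near Spry2, Elovl6, Jmjd1c, Ldhb and Sik1, with fold changes of −1.70 to −1.58. The other scalings shift a fold change by at most 0.48, less than the size of any of these 24 highest and lowest values.

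The filter on length kept 590 subregions, and the shorter ones have fewer reads. Chosen after their values were seen, 4 short DM subregions had changes as large. One of 243 bp on chromosome 9, nearest to 5830454E08Rik, had 142 and 1068 RPKM from 48 and 306 reads (2.90, 2.47 to 3.38). The losses at 5730419I09Rik (−3.31, −5.34 to −1.96), Myo10 (−2.74, −3.68 to −1.96) and Qk (−2.71, −4.28 to −1.53) rested on 4, 14 and 6 reads in Esrrb-/- ESCs.

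Neighbouring subregions tended to change together. Of 453 pairs of consecutive subregions in a block, 312 (68.9%) changed in the same direction, against 125 of 217 (57.6%) for consecutive subregions of different blocks. The median absolute difference in log2 fold change was 0.50 and 0.66, and the Spearman correlation was 0.39 (Pearson 0.43) over the former pairs and 0.04 (Pearson 0.09) over the latter. Each subregion can be in 2 pairs, so pairs are not independent. On the deposited scale, both members were at least 1.5-fold higher in 75 neighbouring pairs and at least 1.5-fold lower in 22, and 25 pairs held a gain and a loss of that size. Centred on the median of all subregions, the share of the same direction was 63.6% within and 48.8% between blocks.

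**Figure D3:**
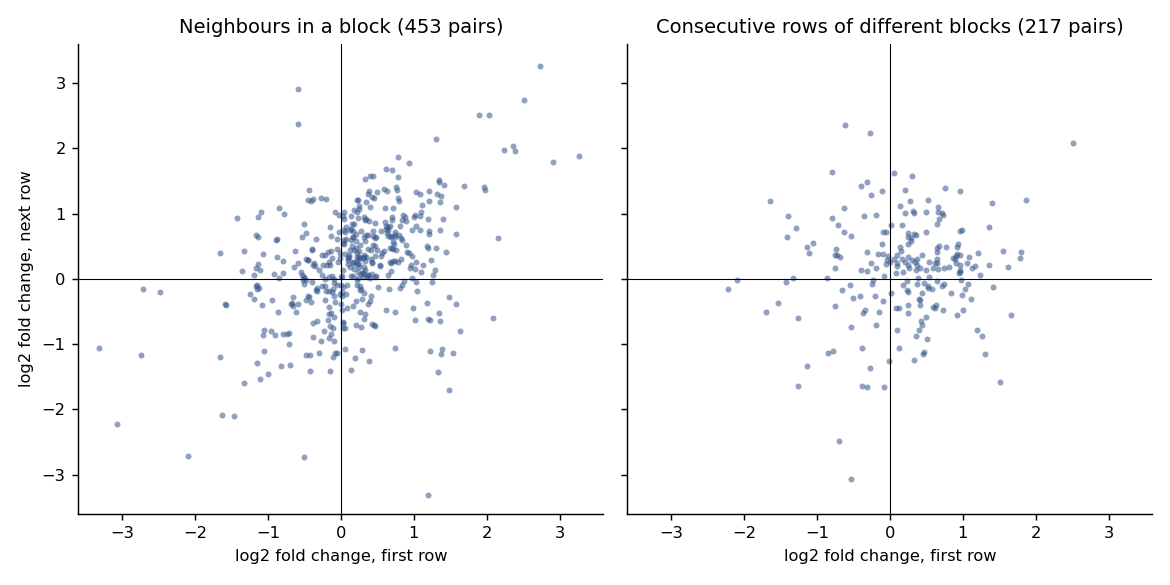
H3K27ac log2 fold change of a subregion (x) and of the next one on the chromosome (y), 1 point per pair. Left, 453 pairs of neighbours in a block, drawn out along the diagonal (68.9% of the same direction). Right, 217 consecutive pairs from different blocks, with no slope (57.6%).

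Runs of at least 3 neighbours that all changed by 1.5-fold or more in 1 direction numbered 15 for gains, with 59 subregions, and 5 for losses, with 17. They were counted on the deposited scale only, where 205 subregions gained and 101 lost 1.5-fold. Scaled to the reads in all subregions, 82 gained and 209 lost, so the balance of runs depends on the scaling. Beside Epb4.9 and Esrrb, with 7 subregions each, the longest runs of gains were at Hsd17b14 and Plekha4 (5 subregions, fold changes 0.62 to 0.83), Ddit4, Alpl (4, 0.61 to 1.68), Ccnd3 (4, 0.64 to 1.40) and Arhgef19 and Epha2 (4, 0.65 to 1.19). Alpl encodes the alkaline phosphatase used to stain ESC colonies, Ccnd3 a cyclin of the G1 phase and Epha2 an ephrin receptor. At Alpl, the exonic DM subregion next to the start had 686 and 2204 RPKM and the PU subregion over the start 563 and 1508 RPKM, while an intronic DM subregion 3568 bp from a start site had 786 and 623 RPKM (−0.34, −0.55 to −0.12). Shorter runs of 3 gains were at Tsc22d1, Rbfox2, Kazn, Sema4b, Gpr37l1, Prrc2b, Sall4 and Pipox.

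The runs of losses were at Gpa33, at 5730419I09Rik, at Qk, in Pde4d and near Sall1, and 16 of their 17 subregions were DM. Of all 101 losses of 1.5-fold or more, 88 were DM, so this share is near that of losses in general. At Gpa33 the change was graded. From the start of the gene inwards, the fold changes of 5 successive DM subregions were 0.47, −0.72, −0.995, −1.46 and −2.10. The counting intervals of those at −0.72 and −0.995, and of those at −0.995 and −1.46, overlapped, and that of the last lay below all others. In Esrrb-/- ESCs the values went from 801 to 384, 372, 122 and 93.2 RPKM, whereas in control they were 577, 631, 743, 339 and 402 RPKM. At 5730419I09Rik, the PU subregion over the start had 519 and 1194 RPKM (1.20, 1.09 to 1.32), and the 4 DM subregions that follow it had fold changes of −3.31 to −1.06. MED1 did not follow each of these, with log2 fold changes there of −2.68 to 1.10. In Pde4d, a cyclic AMP phosphodiesterase, 3 DM subregions had −1.34 to −0.71 next to a PU subregion over a start site at 0.21. Near Sall1, 3 adjoining subregions of a block of 10 had −0.96 to −0.80, and the others had −0.27 to 0.05.

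Most blocks held subregions of both directions. On the deposited scale, of the 164 blocks with at least 2 subregions, 59 had all subregions above 0, 16 had all below 0 and 89 had both, and 29 held a gain and a loss of 1.5-fold or more. These counts depend on where 0 lies. Of all 671 subregions, 434 were above 0 as deposited and 225 when scaled to the reads in all subregions. At Spry2, an inhibitor of receptor tyrosine kinase signalling, the PU subregion 483 bp from the start had 570.4 and 1593 RPKM (1.48, 1.40 to 1.56). The DM subregion after it, within 1 kb of its end and the source of the Spry2 window printed above, had 421 and 129 RPKM (−1.70, −1.97 to −1.45). At Sall4, a zinc finger factor of pluripotent cells, the start-site PU subregion had 709 and 2121 RPKM (1.58, 1.53 to 1.64) and a DM subregion 2045 bp from the start had 427 and 231 RPKM (−0.89, −1.16 to −0.62). In the 205 neighbouring pairs made of a PU and a DM subregion, the PU member had the higher fold change in 147 (71.7%), with a median difference of 0.42.

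Sequence composition moved with the change. The fold change had a Spearman correlation of 0.53 with the GC content of the subregion (Pearson 0.49, 671 subregions), and the Esrrb-/- level had 0.46 (0.47), whereas the control level had 0.16 (0.17). The MED1 fold change at the same subregions had −0.004 (Pearson 0.008). Divided into 4 equal bins of GC content, the subregions had median fold changes of −0.20, 0.21, 0.37 and 0.86 from the lowest to the highest bin. Their median H3K27ac was 458, 518, 528 and 559 RPKM in control and 392, 532, 603 and 991 RPKM in Esrrb-/- ESCs. At least 1.5-fold gains made up 6.5% of the lowest bin and 64.9% of the highest, and losses 28.0% and 4.8%. GC content can also set how well a fragment is amplified and sequenced, and its part in the change was not tested. The input libraries were not used here.

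The difference between PU and DM subregions was found mainly in the highest GC bin. Median PU minus DM was 0.10, 0.14 and 0.10 in the lower 3 bins, and 0.58 in the highest, where GC content was 53.2% to 70.3%. Over all subregions it was 0.54, and 87 of 183 PU but 81 of 488 DM subregions were in that bin. The types also differed within it, with medians of 38.0 CpGs per kb and 1010 bp at PU, and 22.2 and 438 bp at DM subregions. Of those in the bin, 38 PU and 7 DM subregions lay within 1 kb of a protein-coding start. In 4 equal bins of the control level, PU minus DM was 0.44, 0.49, 0.56 and 0.77. After centring within each GC bin, an alternative added after the data were seen, PU minus DM was 0.24.

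**Figure D4:**
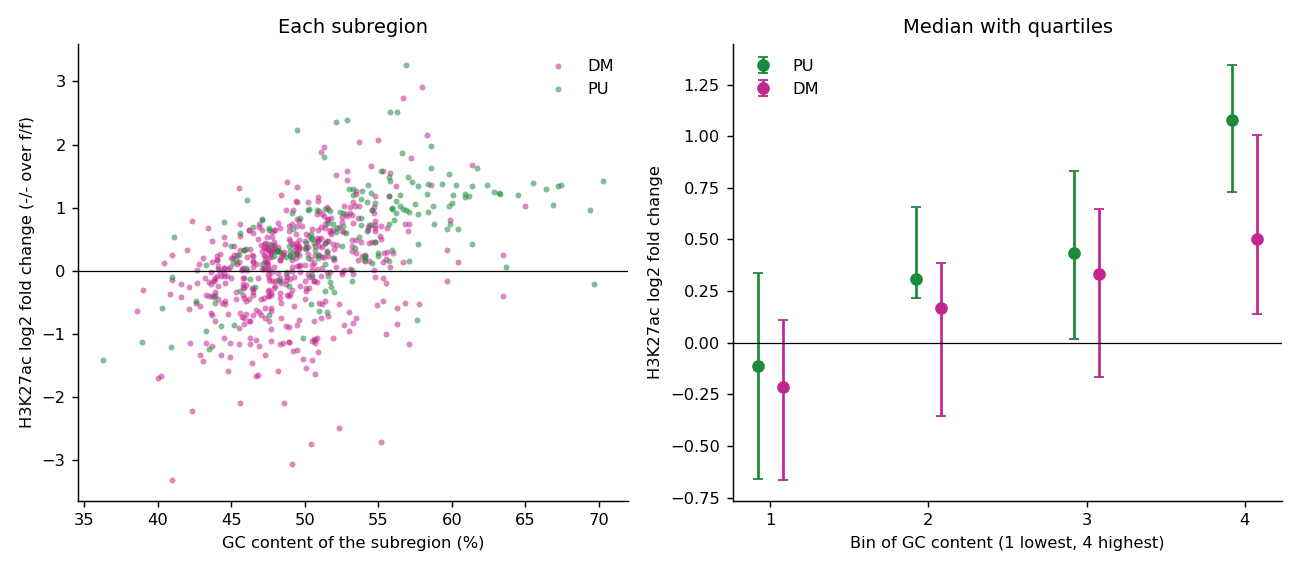
H3K27ac log2 fold change and GC content. Left, each subregion, with GC content in percent (x). Right, the median of PU and DM subregions in each of the 4 bins of GC content with lower and upper quartiles. Medians of both types are higher at higher GC content, and the types separate in the highest bin, with medians of 1.08 (PU) and 0.50 (DM).

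Promoters showed the same division. Within 1 kb of a protein-coding start, 105 subregions had a median fold change of 0.48, against 0.21 at the 566 others. Without regard to GC content, the difference lay in the PU subregions, with medians of 0.99 at 56 promoters (39 gains and 1 loss) and 0.50 at 127 distal ones. For DM subregions it was 0.16 at 49 promoters (7 gains and 8 losses) and 0.11 at 439 distal ones. Among PU promoters, the 38 in the highest GC bin had a median of 1.24, with 33 gains and no loss, and the other 18 had 0.33, with 6 gains and 1 loss. The 49 distal PU subregions of that bin had 0.97, above the PU promoters of lower GC content, and the other 78 had 0.30. At distal DM subregions the medians were 0.48 in the highest GC bin (74 subregions) and 0.03 in the rest (365). Only 7 DM promoters were in that bin, with a median of 0.72, 5 gains and no loss. The other 42 DM promoters had 0.07, with 2 gains and 8 losses.

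The GC box GGGCGG, read by KLF and SP factors, showed this in letters. It was found on either strand in 102 of the 205 subregions with gains (49.8%) and 25 of the 101 with losses (24.8%). Of all 671 subregions, 246 held it (36.7%). Matches per kb were 1.27, 0.283 and 0.671 in that order. PU subregions held it more often (55.7%) than DM subregions (29.5%). Within DM subregions it was in 34 of 105 gains (32.4%) and 22 of 88 losses, at 0.536 and 0.258 matches per kb. All DM subregions had 0.358 per kb. Another KLF motif, GGGTGTGG, was in 19.5% of gains and 10.9% of losses (17.4% of all), at 0.176, 0.097 and 0.163 matches per kb. The ESRRB core AAGGTCA was found in 35.1% of the gains and 38.6% of the losses, at 0.355 and 0.495 matches per kb (0.399 over all subregions). The median fold change was 0.21 with the core (236 subregions) and 0.26 without it (435). Within DM subregions the medians were 0.07 and 0.14. The longer form TCAAGGTCA, which contains the core, was found in 69 subregions (10.3%), whose median was 0.01 with 16 gains and 16 losses, against 0.25 in the rest. Among DM subregions it was in 16 of the 88 losses (18.2%), in 10 of the 105 gains (9.5%) and in 62 of all 488 (12.7%). Losses and gains held the octamer ATGCAAAT at similar shares, 9.9% and 10.2% (10.3% of all).

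The genes of the naive network had no shared direction. Within 150 kb of the start of 15 of 18 listed naive pluripotency genes lay 63 subregions, 55 of them DM, with a median fold change of 0.06. Of these, 13 (20.6%) were at least 1.5-fold higher and 10 (15.9%) at least 1.5-fold lower, against 30.6% and 15.1% of all subregions, and with the scaling to reads in all subregions 4 and 24. The members went different ways. Esrrb supplied 7 of the 13 gains. Klf2, a zinc finger factor of naive cells, had 0.70 and 1.67 at its DM subregions, the latter with the highest Esrrb-/- value of all, 1292 and 4097 RPKM over 134 bp. At Klf4, a relative of Klf2, both DM subregions were lower, with fold changes of −1.06 (503 and 241 RPKM) and −0.79 (549 and 317 RPKM). Klf5 had 0.12 to 0.69. At Tbx3, a T-box factor, the DM subregion over the start had 629 and 969 RPKM (0.62, 0.55 to 0.70), and 3 of the 7 others were at least 1.5-fold lower, down to 364 and 158 RPKM (−1.19, −1.35 to −1.05). At Tet2 the 3 intronic subregions had −1.33, −1.59 and −0.39. Nanog and Dppa3 share 10 subregions, of which 1 was 1.5-fold higher and none lower, with a median of −0.05. The gain (0.98) was in a block that lies inside Slc2a3. Prdm14 had a median of 0.04 over 7 and Tfcp2l1 of −0.42 over 2.

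Genes of general or primed pluripotency had 41 subregions at 11 of 22 genes, with a median of 0.18, 13 gains (31.7%) and 6 losses (14.6%), against 30.6% and 15.1% of all subregions. With the scaling to reads in all subregions there were 4 gains and 11 losses, and the median was −0.30. Their 17 PU subregions had a median of 0.74 and their 24 DM subregions 0.10. Mycn had 0.79 and 1.87, the latter over its start at 331 and 1213 RPKM. Sox2 had 0.96 over its start (528 and 1025 RPKM) and −1.13 at the PU subregion just before it (167 and 75.5 RPKM). Pou5f1 had 0.18 to 0.84. At Otx2, a factor of the primed state, both subregions were lower, at 559 and 267 RPKM (−1.06, −1.19 to −0.95) and at 308 and 169.5 RPKM (−0.86, −1.04 to −0.69).

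Signalling genes were covered in part. The 20 subregions of 6 of 12 NODAL and BMP genes had a median of 0.45, with 9 gains (45.0%) and 4 losses (20.0%), against 30.6% and 15.1% of all subregions. Scaled to the reads in all subregions, the list had 2 gains and 5 losses, with a median of −0.025. Lefty1 and Lefty2, which encode inhibitors of NODAL, share 3 PU subregions with fold changes of 0.72 to 0.97. Id1, a target of BMP, had 1.26 over its start, and Inhbb, a subunit of activin, had −0.78 and −1.11. The 22 subregions of 5 of 11 FGF and ERK genes had 10 gains (45.5%) and 4 losses (18.2%), against the same shares of all subregions, and 7 of the gains were those next to Fgf17. On the deposited scale, the list without the 7 subregions next to Fgf17 had 3 gains and 4 losses in 15 subregions. With the scaling to reads, the full list had 10 gains and 8 losses, and 7 of those gains were next to Fgf17. For LIF and STAT3, 4 subregions of 2 of 7 genes were measured. Pim1, a kinase induced by STAT3, had 1.35 and 1.51, with 982 and 2804 RPKM at the latter, and Socs3, an inhibitor of the same pathway, had 0.18 and 1.05. The WNT and TCF list had 3 subregions, at 1.64, 0.10 and −0.80. They were counted for Tcf7 but lie inside Vdac1, at least 76540 bp from the Tcf7 start.

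**Figure D5:**
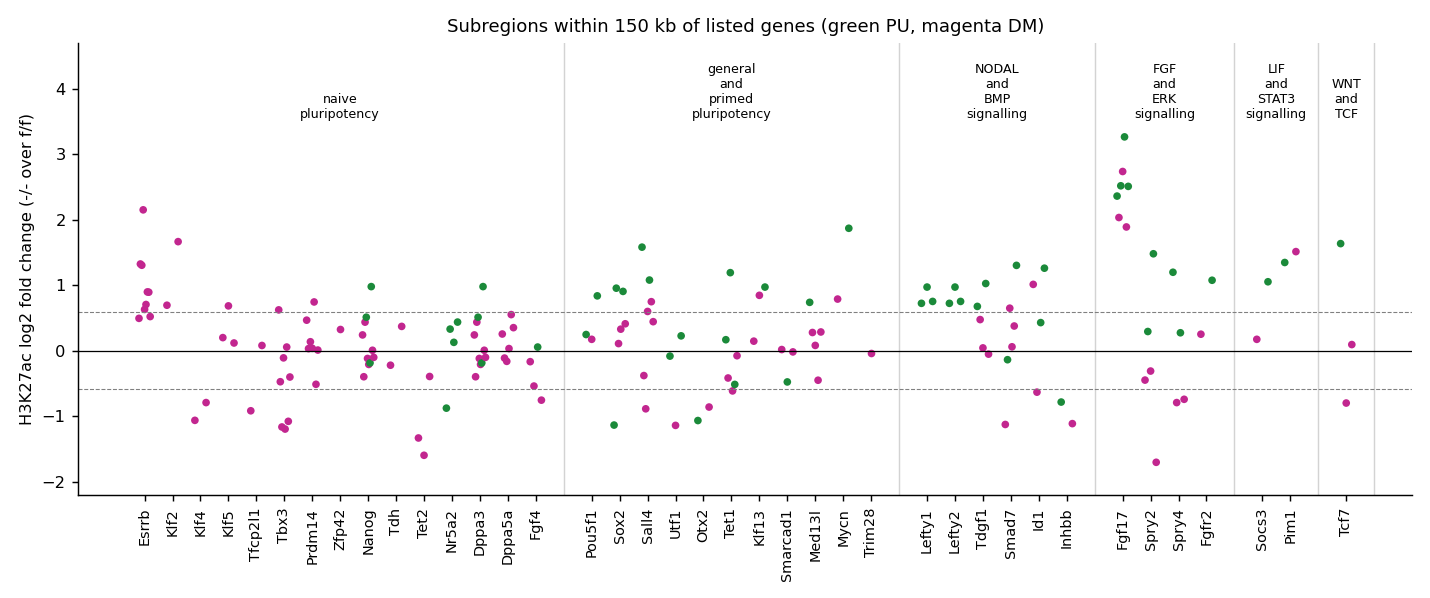
H3K27ac log2 fold change of each subregion within 150 kb of the start of a listed gene, grouped by list, with dashed lines at 1.5-fold. Nanog and Dppa3, and Lefty1 and Lefty2, show the same subregions, and Fgf4 is drawn with the naive genes only. The 7 points of Fgf17 lie between 1.89 and 3.26, and genes of every larger list have points on both sides of 0.

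MED1 was lower at most H3K27ac losses and lay on either side of 0 at H3K27ac gains. At the 101 subregions with at least 1.5-fold less H3K27ac the median MED1 log2 fold change was −0.52 and MED1 was lower at 77. At the 205 with at least 1.5-fold more H3K27ac it was 0.13, with MED1 higher at 111 and lower at 94. At the other 365 it was −0.15, with MED1 higher at 147 and lower at 218. Over all subregions both fold changes had the same sign in 57.4%, with a Spearman correlation of 0.30 (Pearson 0.33). The median over the chromosomes ranged from −0.32 on chromosome 3 (32 subregions) to 0.68 on chromosome 19 (13 subregions) for H3K27ac.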

How the data were processed

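H3K27ac ChIP-seq of Esrrb-/- and Esrrb f/f ESCs was analysed from the RPKM deposited by the authors, 1 value per SE subregion and genotype, not split by the 2 libraries of each genotype. Per the labels and the methods, the authors trimmed reads with Trimmomatic, aligned them with Bowtie2 to mm9, removed duplicates with Picard and counted reads on subregions. The total behind the RPKM and the way in which libraries were combined are not given in the sources used here. No column of fold changes or p-values was present.

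The members and gene lists were chosen with earlier results of these data known. H3K27ac files of both genotypes were joined on coordinates and type, and MED1 values were read beside them. RPKM multiplied by length came out as a whole multiple of a common step, within 0.001, and gave the reads, known up to a common factor. Fold changes used a pseudocount of 1 RPKM, which understates changes of low values. Named were the 12 highest and 12 lowest subregions of at least 300 bp, runs of at least 3 neighbours past 1.5-fold and subregions within 150 kb of listed genes. Genes, sequence and GC content came from NCBIM37 (mm9) with GENCODE vM1, and all subregions start on a CpG there. Promoters were within 1 kb of a protein-coding start. A subregion was named after the nearest protein-coding start, which need not be its target. Functions were tested on simulated reads. Scripts ran in Python 3.11.15 with pysam 0.24.0, numpy 2.4.6, scipy 1.17.1, pandas 2.3.3 and matplotlib 3.10.9. The alternatives were another pseudocount, filters on level and length, the 3 scalings, no chromosome X, 1 value per block, other distances and the longer motif.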

Additional observations from a re-analysis of the deposited data

How the results depend on the processing

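No paired analysis was possible because the files hold 1 pooled value per genotype, and for the same reason no replicate could be left out. The mapped read pairs used for a scaling were read from the study's reporting summary. In the order centred on the median of all subregions, scaled to the reads in all subregions and scaled to mapped read pairs, the median of all subregions was 0.00, −0.24 and −0.083 (0.24 as deposited), that of PU subregions 0.42, 0.19 and 0.34 (0.66) and that of DM subregions −0.12, −0.36 and −0.20 (0.12), so the direction at DM subregions and of the overall median depended on the scaling. Gains of 1.5-fold numbered 131, 82 and 118 (205), and losses 209 and 166 under the last pair of scalings (101). PU minus DM was 0.54 under each of these scalings. Leaving out the subregions below the 25th percentile of mean RPKM, the medians were 0.36 for all and 0.25 for DM subregions, 28 losses were left and 73.7% of neighbouring pairs changed in the same direction. Subregions of at least 500 bp held 67 losses. With 1 value per block there were 52 gains and 22 losses among 218 blocks, and neighbouring pairs cannot be formed. Centred on the median of all subregions, 63.6% of neighbouring pairs changed in the same direction. The longer motif gave a median difference of −0.24 with against without it (−0.05 with the core). Centred within the 4 GC bins, which was added after the data were seen, PU subregions had a median of 0.15 and DM subregions of −0.094, PU minus DM was 0.24, the core motif difference turned to 0.01 and 63.4% of neighbouring pairs changed in the same direction, against 56.7% of consecutive pairs from different blocks (Spearman correlations of 0.43 and 0.13). Over all settings of these summary results, 63 values stayed within the interval of the median or share or, for counts, within 1.5 times, 21 moved further and 7 turned in direction. Low read numbers limit the shortest subregions most.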
